A study of Mus musculus with 13 samples.

Results

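The 10 genes described here encode transforming growth factor beta (TGF-beta) ligands (Tgfb1, Tgfb2, Tgfb3), their receptors (Tgfbr1, Tgfbr2, Tgfbr3) and SMAD proteins (Smad2, Smad3, Smad6, Smad7). They were chosen by name in the deposited table of counts, where they are 10 of 54532 genes. All 10 passed the filter on low counts, which left 15811 genes for testing.

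Aortas from ApoE-/- mice, which lack apolipoprotein E, were sequenced to ask how an adenovirus carrying mouse Fam3a alters expression in the aortic wall. All of these mice also received angiotensin II (AngII), a pressor peptide that brings on abdominal aortic aneurysm in this strain, so no aorta here came from an animal without AngII. The control group, Ad-sham (n = 6 aortas), was given empty adenovirus. Ad-FAM3A (n = 7 aortas) was given the virus encoding FLAG-tagged mouse FAM3A and mCherry. The vector's name gives the EF1A promoter, which is active in most cell types. The study's methods also name a CMV vector in its construction, and which promoter drove the transgene was not settled. By the study's methods, AngII was infused at 1000 ng/kg/min for up to 28 days from an age of 10 weeks, and virus was injected 5 times into the tail vein. The EF1A promoter and the route do not restrict the transgene to a cell type. The sex of each sequenced mouse was not given in the sources used here, and each aorta was 1 library of whole tissue.

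TGF-beta ligands are secreted in latent form and are released by integrins, proteases and thrombospondin. The active ligand binds TGFBR2, which recruits and phosphorylates TGFBR1, and TGFBR1 in turn phosphorylates SMAD2 and SMAD3, which enter the nucleus with SMAD4. SMAD6 and SMAD7 are inhibitory SMADs induced by the same signals, and betaglycan (TGFBR3) presents ligand to the signaling receptors. In the aorta the pathway maintains contractile smooth muscle and matrix, and mutations in its ligands, receptors or SMAD3 cause inherited aortic aneurysm.

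Between 14481179 and 19797407 reads were counted on genes per aorta, and every member had at least 213 counts in every aorta. The gene that the virus delivers had no higher mean under the Ad-FAM3A label. Fam3a averaged 24.4 ± 4.27 CPM (counts relative to the TMM-scaled library size, mean ± SD, n = 6) in Ad-sham and 24 ± 4.64 CPM (n = 7) in Ad-FAM3A, and its log2 fold change was -0.03 ± 0.16 (standard error), or 0.09 without Ad-FAM3A6 and Ad-FAM3A7. Every direction below is therefore one between libraries as labelled. Smooth muscle, endothelial and fibroblast markers were present in all 13 aortas, with no marker of these lists at 0 in any aorta. The libraries labelled Ad-FAM3A6 and Ad-FAM3A7 stood apart by B and T cell markers, whose summed level was 15936 and 4984 CPM there and at most 361.5 CPM in the other 11 aortas. Values without these 2 libraries are given for each member, ratio and pathway list.

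Across the table, edgeR's quasi-likelihood test called 0 genes past both thresholds (adjusted p below 0.05, log2 fold change over 1 in either direction), a background of 0%, and 0 of the 10 members were called. Genes below 0.05 without adjustment numbered 934, or 5.91% of those tested, made up of 2.98% higher and 2.93% lower in Ad-FAM3A. A single member, Tgfbr1, was among them, on the higher side. DESeq2 called 10 genes, none of them a member. The adjusted p of the members lay between 0.810 and 0.958 in edgeR's quasi-likelihood test. Of the 10 members, 6 had a higher and 4 a lower mean in Ad-FAM3A, against 50.4% higher among all genes tested, and their median log2 fold change was 0.23, against 0.0032 for all genes. No member had groups that did not overlap, as 0.0949% of all genes had, and none differed by more than 1 on the log2 scale, as 3.67% of all genes did.

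**Figure D1:**
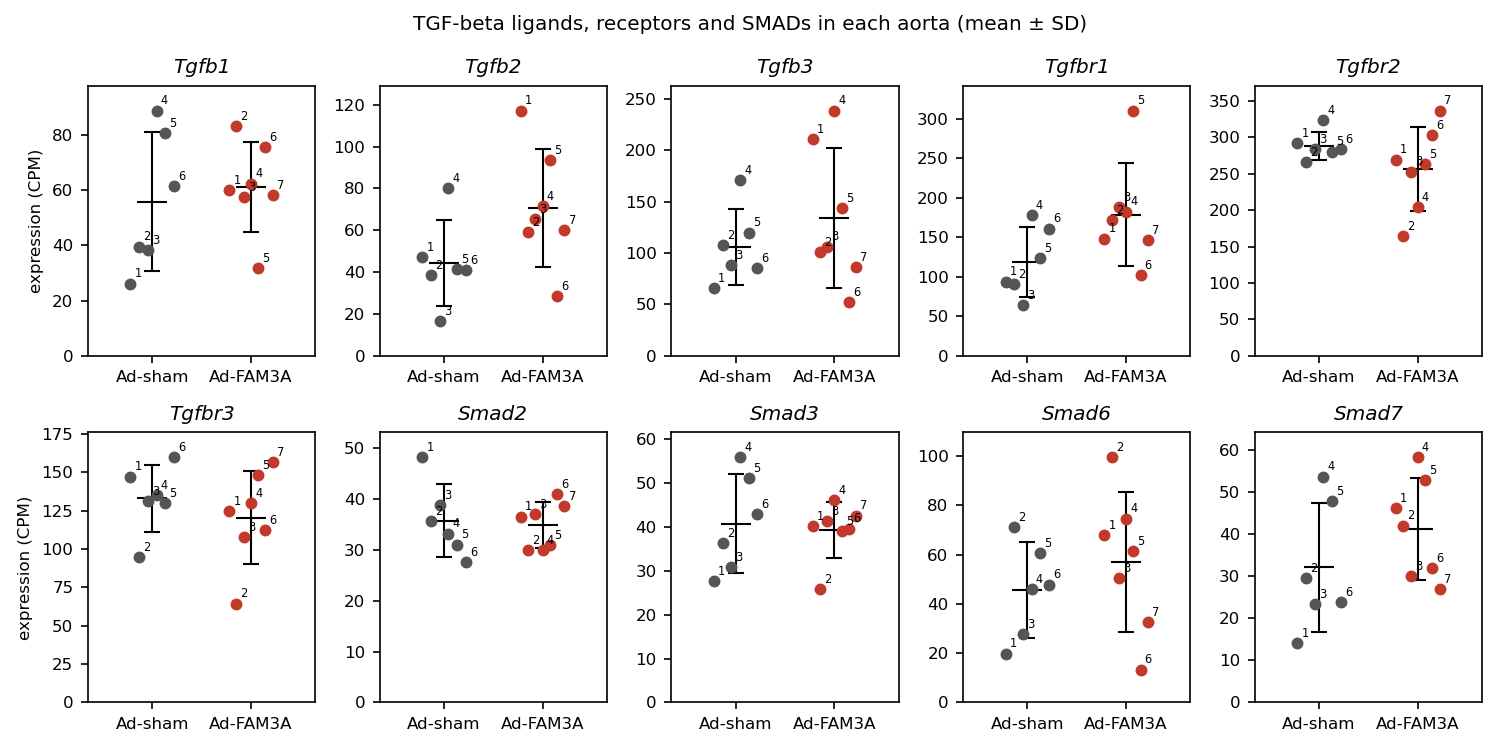
Expression of the 10 members in CPM on linear axes starting at 0, with 1 panel per gene, 1 numbered point per aorta (grey for Ad-sham, n = 6, and red for Ad-FAM3A, n = 7) and black bars for the mean ± SD. The groups overlap in every panel. Ad-FAM3A aortas lie above the Ad-sham median in 6 of 7 cases for Tgfb1, Tgfb2 and Tgfbr1 and in 7 of 7 for Smad7.

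The members lie on 7 autosomes in GRCm38, the build of the deposited table, and the promoters of 6 of them could be read from RefSeq (GRCm38.p6). For Tgfb1 (ENSMUSG00000002603) the table gives chr7:25687002-25705077, for Tgfb2 (ENSMUSG00000039239) chr1:186622792-186705989, and for Tgfb3 (ENSMUSG00000021253) chr12:86056745-86079041. The receptor genes are at chr4:47353222-47414931 (Tgfbr1, ENSMUSG00000007613), chr9:116084293-116175360 (Tgfbr2, ENSMUSG00000032440) and chr5:107106570-107289629 (Tgfbr3, ENSMUSG00000029287). Smad3 (ENSMUSG00000032402) spans chr9:63646767-63757994 and Smad6 (ENSMUSG00000036867) chr9:63953076-64022059, so both lie on 1 chromosome with Tgfbr2. Counting was not stated to use strand. The end of Tgfb3 overlaps Ttll5 on the opposite strand, which had at most 400 counts in an aorta, whereas Tgfb3 had at least 852. The other annotated genes that overlap a member had at most 11 counts.

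The 250 bases before the start site are shown for Tgfb2 and Tgfbr1, the members with the largest difference between groups, and for Tgfb1 and Tgfbr2, their partners in the ratios below. Each is written 5′ to 3′ on the strand of its gene, with capitals marking the letters CAGAC (a SMAD box) or CACCC (bound by KLF factors) on either strand.
Tgfb1 promoter: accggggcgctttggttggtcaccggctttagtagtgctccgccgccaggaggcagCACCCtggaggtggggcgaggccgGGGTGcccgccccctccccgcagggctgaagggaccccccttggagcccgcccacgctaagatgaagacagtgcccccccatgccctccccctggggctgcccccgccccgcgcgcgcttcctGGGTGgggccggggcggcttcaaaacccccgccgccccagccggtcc
Tgfb2 promoter: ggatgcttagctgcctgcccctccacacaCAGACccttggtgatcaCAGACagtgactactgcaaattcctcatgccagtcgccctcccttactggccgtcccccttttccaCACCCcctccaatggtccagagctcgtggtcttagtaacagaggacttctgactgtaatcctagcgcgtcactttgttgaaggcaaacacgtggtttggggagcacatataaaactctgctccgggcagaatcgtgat
Tgfbr1 promoter: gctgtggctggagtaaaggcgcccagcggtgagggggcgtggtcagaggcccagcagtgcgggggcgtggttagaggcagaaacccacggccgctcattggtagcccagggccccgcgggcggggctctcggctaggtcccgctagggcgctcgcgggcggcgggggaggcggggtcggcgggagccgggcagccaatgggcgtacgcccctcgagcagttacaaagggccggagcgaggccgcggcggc
Tgfbr2 promoter: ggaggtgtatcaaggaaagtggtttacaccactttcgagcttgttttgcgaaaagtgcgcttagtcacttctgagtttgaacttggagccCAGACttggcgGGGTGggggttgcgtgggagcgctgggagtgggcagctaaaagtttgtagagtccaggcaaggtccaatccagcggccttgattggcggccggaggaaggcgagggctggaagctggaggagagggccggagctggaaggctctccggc
These windows are chr7:25686752-25687001 (plus strand), chr1:186705990-186706239 (minus strand), chr4:47352972-47353221 (plus strand) and chr9:116175364-116175613 (minus strand). The Tgfb2 window held 2 SMAD boxes and 1 KLF match, and the Tgfbr2 window held 1 of each. In Tgfb1 there were 3 KLF matches and 0 SMAD boxes, and in Tgfbr1 neither motif was found. No match overlapped another. Among 32851 promoter entries of the same length, 42.2% held a SMAD box and 52.0% a KLF match, so these matches are common by their letters alone. GGAATG (TEAD, in 12.6% of promoters), TGANTCA (AP-1, in 6.75%) and the CArG box, the site of serum response factor (in 1.47%), were in none of the 4 windows, nor in those of Smad3 and Smad6. The windows differed in base composition, with 75.2% G and C in Tgfb1, 74.8% in Tgfbr1, 58.4% in Tgfbr2 and 53.6% in Tgfb2.

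On the scale that allows genes to be compared, CPM per kilobase of gene length, Tgfb3 and Tgfbr2 had the highest levels of the set. Tgfb3 averaged 35.8 ± 16.4 CPM per kb (SD, n = 13) and Tgfbr2 33.1 ± 5.61. Tgfbr1 followed at 23.1 ± 9.52, Tgfbr3 at 19.3 ± 4.06 and Smad6 at 16.2 ± 7.61 CPM per kb. Lower levels were found for Tgfb1 (11.6 ± 3.99), Tgfb2 (10.1 ± 4.76), Smad2 (9.92 ± 1.60), Smad7 (8.19 ± 3.08) and Smad3 (7.21 ± 1.55). No gene differed from the next in this order by more than the SD of their difference over the 13 aortas. Within families the order was more regular. Tgfb3 was the leading ligand per length in 13 of 13 aortas. Tgfbr2 was the leading receptor in 10 and Tgfbr1 in the other 3, and Smad6 the leading SMAD in 9 and Smad2 in 4. These orders rest on the deposited gene lengths. In Ad-FAM3A6 the ratio of Tgfb3 to Tgfb1 per length was 1.03, with 852 counts for Tgfb3 and 1234 for Tgfb1. In Ad-sham, Tgfb3 supplied between 56.6% and 71.3% of the ligand signal per length, and in Ad-FAM3A between 43.6% and 74.0%.

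**Figure D2:**
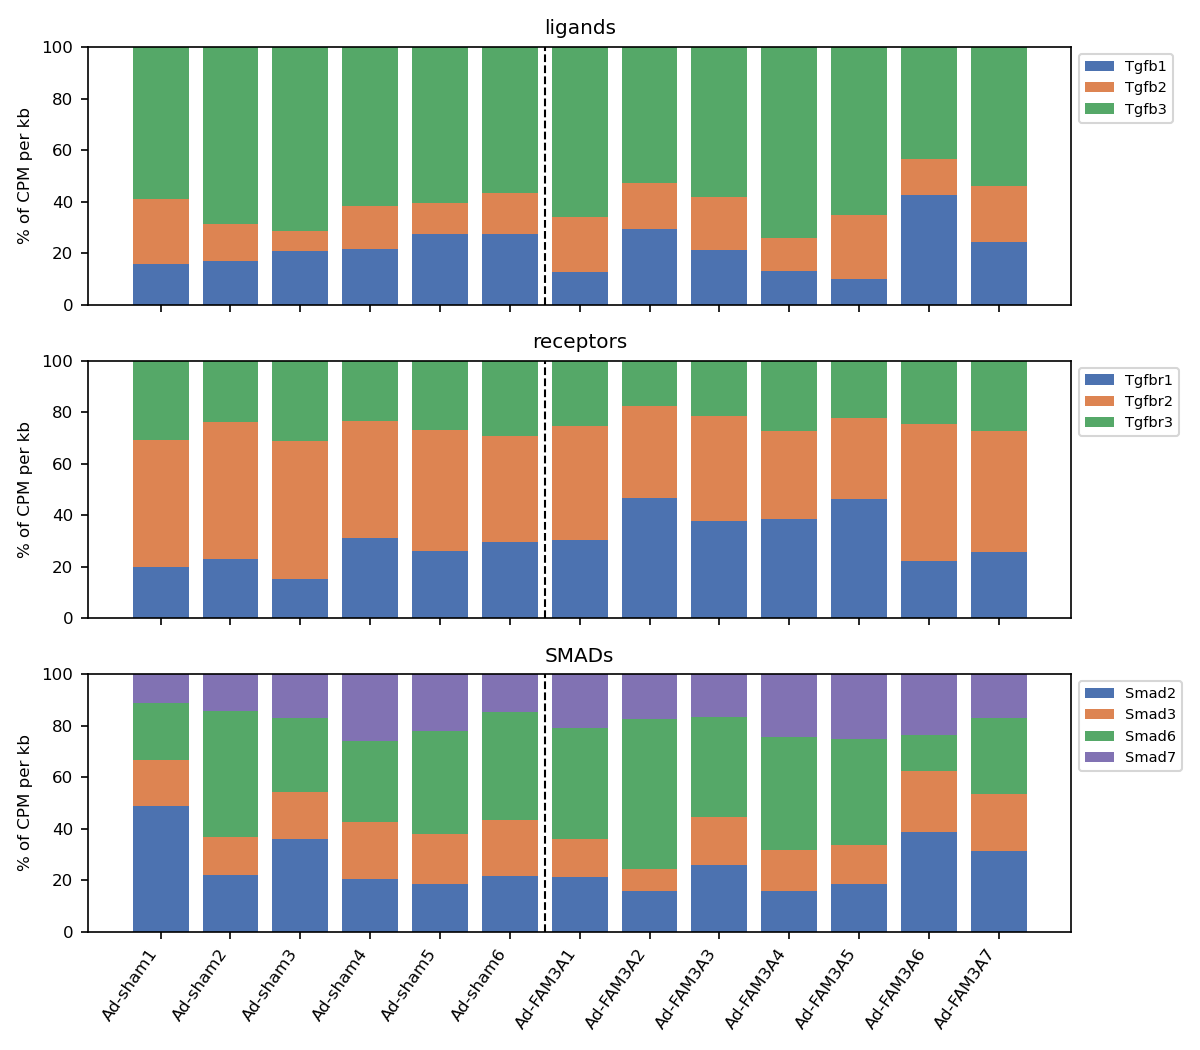
Share of each member in its family's summed CPM per kb, in percent, as stacked bars for each of the 13 aortas, with Ad-sham left and Ad-FAM3A right of the dashed line. Tgfb3 is the largest part of the ligands in every aorta, and Tgfbr1 passes Tgfbr2 in 3 aortas, all labelled Ad-FAM3A.

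Among the ligands, Tgfb2 had the largest difference between the groups and did not pass the test. TGF-beta 2 is the isoform best known from heart valve and outflow tract development. Its level was 16.7, 41.3 and 80.1 CPM (lowest, median and highest) in Ad-sham and 28.7, 65.4 and 117.2 CPM in Ad-FAM3A. The groups overlapped: 6 of 7 Ad-FAM3A aortas were above the Ad-sham median, but only Ad-FAM3A1 and Ad-FAM3A5 were above Ad-sham4, the highest control. The log2 fold change was 0.68 ± 0.33 (unadjusted p = 0.0593, edgeR's quasi-likelihood test). Leaving out Ad-sham4 raised it to 0.93 and leaving out Ad-sham3 lowered it to 0.51, so the value rested in part on which control aortas were included. Without Ad-FAM3A6 and Ad-FAM3A7 it was 0.88 (unadjusted p = 0.0151). Over all alternatives its adjusted p lay between 0.558 and 0.999.

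Tgfb1 encodes the main isoform of leukocytes and of wound repair. Its level was 26.2, 50.4 and 88.7 CPM in Ad-sham and 31.8, 60.0 and 83.1 CPM in Ad-FAM3A, so the groups covered much the same range. Within Ad-sham the aortas fell far apart, with 3 at or below 39.5 CPM and 3 at or above 61.3 CPM. The log2 fold change was 0.13 ± 0.28, and it ran from 0.0064 without Ad-sham1 to 0.31 without Ad-sham4 and was 0.08 without Ad-FAM3A6 and Ad-FAM3A7. The isoform with the highest level, Tgfb3, ranged over 65.5, 97.9 and 170.5 CPM in Ad-sham and 52.1, 106.2 and 238.4 CPM in Ad-FAM3A. The 2 highest Tgfb3 levels, in Ad-FAM3A4 and Ad-FAM3A1, and the lowest, in Ad-FAM3A6, were all in aortas with the Ad-FAM3A label. Its log2 fold change was 0.34 ± 0.33 and became 0.59 without Ad-FAM3A6 and Ad-FAM3A7, and it ran from 0.15 without Ad-FAM3A4 to 0.52 without Ad-sham4 with 1 aorta left out.

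Tgfbr1, the type I receptor kinase that phosphorylates SMAD2 and SMAD3, was the member with the smallest p. It stood at 64.4, 108.9 and 178.0 CPM in Ad-sham and at 101.8, 171.2 and 310.2 CPM in Ad-FAM3A. Of the 7 Ad-FAM3A aortas, 6 were above the Ad-sham median and 3 were above every Ad-sham aorta, with Ad-FAM3A5 the highest and Ad-FAM3A6 the lowest. The log2 fold change was 0.59 ± 0.27 (unadjusted p = 0.0477, adjusted p = 0.810 in edgeR's quasi-likelihood test), and an exact permutation test over the 1716 splits of the aortas gave p = 0.0629 for the single gene (two-sided). By p it ranked 892 of 15811 genes. Leaving out 1 aorta kept the log2 fold change between 0.41 (without Ad-FAM3A5) and 0.74 (without Ad-sham4), and it was 0.75 without Ad-FAM3A6 and Ad-FAM3A7.

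The type II receptor and betaglycan leaned the other way by small amounts. Tgfbr2, the receptor that binds ligand first, stood at 265.8, 283.4 and 323.7 CPM in Ad-sham and at 164.0, 263.4 and 336.7 CPM in Ad-FAM3A. The 6 control aortas lay close together, with an SD of 0.09 on the log2 scale against 0.35 in Ad-FAM3A, where 4 of 7 aortas were below every control and 1 was above. The log2 fold change was -0.17 ± 0.16. Tgfbr3 stood at 94.8, 133.1 and 159.8 CPM in Ad-sham and at 64.3, 124.8 and 156.3 CPM in Ad-FAM3A, with a log2 fold change of -0.14 ± 0.19. A single aorta, Ad-FAM3A2, was the lowest for both receptors, and without it the log2 fold changes were -0.07 and -0.02. Without Ad-FAM3A6 and Ad-FAM3A7 they were -0.33 and -0.22, and Tgfbr3 was also -0.22 without Ad-sham2.

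The receptor-regulated SMADs varied little between aortas. Smad2 stood at 27.5, 34.4 and 48.2 CPM in Ad-sham and at 29.9, 36.5 and 40.9 CPM in Ad-FAM3A. All 7 Ad-FAM3A aortas fell inside the range of the controls, and the log2 fold change was -0.04 ± 0.14. For Smad3 the values were 27.6, 39.6 and 55.9 CPM in Ad-sham and 25.8, 40.1 and 46.2 CPM in Ad-FAM3A, with a log2 fold change of -0.06 ± 0.18. The highest Smad3 level was in Ad-sham4 and the lowest in Ad-FAM3A2. The sign of both values depended on single aortas, since Smad2 was 0.07 without Ad-sham1 and Smad3 was 0.06 without Ad-sham4. Without Ad-FAM3A6 and Ad-FAM3A7 they were -0.13 and -0.09.

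The inhibitory SMADs varied far more between aortas than the receptor-regulated SMADs. Smad6, which acts mainly on bone morphogenetic protein (BMP) signaling, stood at 19.8, 47.0 and 71.3 CPM in Ad-sham and at 13.3, 61.4 and 99.7 CPM in Ad-FAM3A. It had the widest range of the set, 7.51-fold from Ad-FAM3A6 to Ad-FAM3A2, against 1.75-fold for Smad2. Its log2 fold change was 0.33 ± 0.39, and 0.64 without Ad-FAM3A6 and Ad-FAM3A7. With 1 aorta left out it ran from 0.15 without Ad-FAM3A2 to 0.51 without Ad-FAM3A6. Smad7, which blocks TGFBR1 and recruits the SMURF ubiquitin ligases to it, stood at 14.1, 26.7 and 53.8 CPM in Ad-sham and at 27.0, 42.1 and 58.4 CPM in Ad-FAM3A. All 7 Ad-FAM3A aortas were above the Ad-sham median, but only Ad-FAM3A4 was above every control. The log2 fold change of Smad7 was 0.36 ± 0.29 (unadjusted p = 0.237, edgeR's quasi-likelihood test), 0.52 without Ad-FAM3A6 and Ad-FAM3A7, 0.22 without Ad-sham1 and 0.57 without Ad-sham4.

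**Figure D3:**
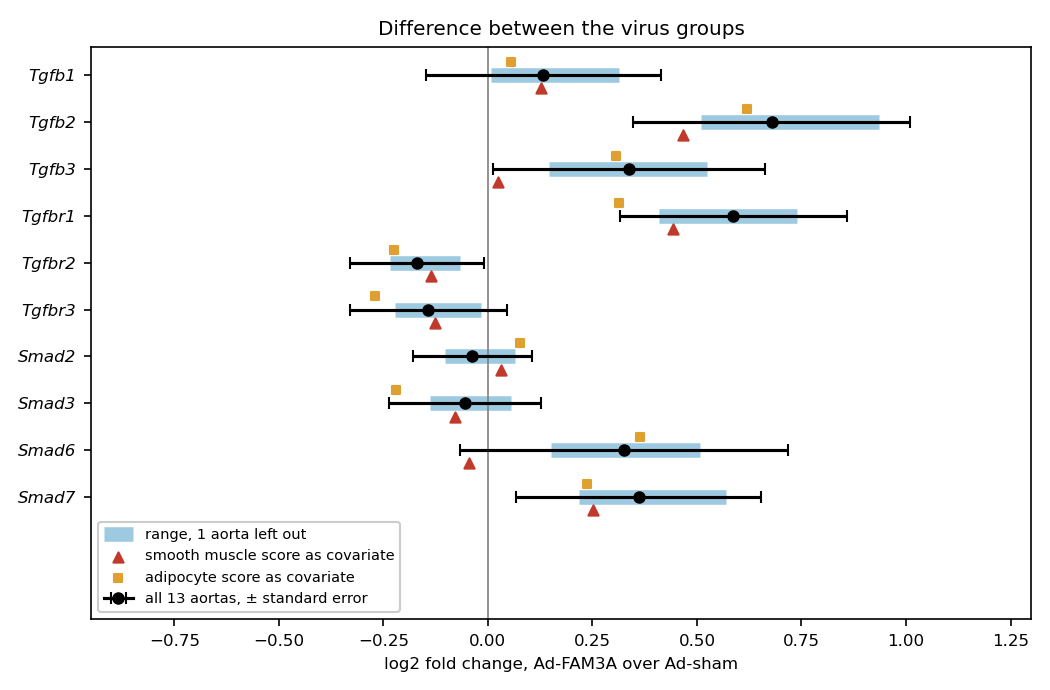
Log2 fold change of each member, Ad-FAM3A over Ad-sham, as black points with standard errors, with blue bars for the range when 1 aorta is left out, red triangles for the fit with the smooth muscle score as covariate and yellow squares for the fit with the adipocyte score. Tgfb2 and Tgfbr1 lie farthest from 0, at 0.68 and 0.59, and the red triangles of Tgfb3 and Smad6 lie near 0, at 0.02 and -0.04.

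Ratios within an aorta do not depend on how libraries are scaled, and 5 of them were compared by exact permutation tests over the 1716 splits. The ratio of Tgfbr1 to Tgfbr2 per length was 0.28, 0.49 and 0.71 in Ad-sham and 0.42, 0.93 and 1.48 in Ad-FAM3A. In no Ad-sham aorta did the level of the type I receptor reach that of the type II receptor, whereas it was above it in Ad-FAM3A2, Ad-FAM3A4 and Ad-FAM3A5. The mean ratio was 1.74-fold higher in Ad-FAM3A, a log2 difference of 0.80 (exact permutation p = 0.0431, adjusted over the 5 ratios 0.216, two-sided), so it did not pass after adjustment. Without Ad-FAM3A6 and Ad-FAM3A7 the log2 difference was 1.13 (exact permutation p = 0.00866, adjusted p = 0.0433), and these were the 2 Ad-FAM3A aortas with the lowest ratios. Over all alternatives the adjusted permutation p of this ratio lay between 0.0433 and 0.400. The ratio of Smad7 to Smad3, inhibitory to activating, was 0.63, 0.97 and 1.18 in Ad-sham and 0.78, 1.41 and 2.0 in Ad-FAM3A, with 4 of 7 aortas above every control and a log2 difference of 0.48 (exact permutation p = 0.0886, adjusted 0.221), or 0.69 without Ad-FAM3A6 and Ad-FAM3A7 (exact permutation p = 0.0260, adjusted 0.0649). For Tgfb2 to Tgfb1 the log2 difference was 0.50 (exact permutation p = 0.316, adjusted 0.526), with 0.26 without Ad-FAM3A5 and 0.75 without Ad-FAM3A6. It was 0.03 for Tgfb3 to Tgfb1 (adjusted exact permutation p = 0.955) and -0.22 for Smad6 to Smad7 (adjusted exact permutation p = 0.778). Without Ad-FAM3A6 and Ad-FAM3A7 these 3 differences were 0.83, 0.43 and 0.10, with adjusted exact permutation p of 0.173, 0.335 and 0.727.

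Part of the variation between aortas followed the level of smooth muscle genes. Smooth muscle, endothelial, fibroblast and adipocyte scores (the mean log2 CPM of 10 markers each) were set against the 10 members. Of these 40 relations, 5 passed at an adjusted p under 0.05 (Pearson's r, 100000 permutations). How many of all tested genes followed a score as closely was not counted, so no relation is shown to be particular to the members. Smad6 followed the smooth muscle score with r = 0.93 and rho = 0.89 (permutation p = 3.0e-05, adjusted 0.0012, n = 13), and Tgfb3 with r = 0.88 and rho = 0.89 (permutation p = 0.00011, adjusted 0.0022). Smad7 followed it more loosely, at r = 0.74 and rho = 0.73 (permutation p = 0.00332, adjusted 0.0332, and adjusted 0.0586 for rho). Smad2 ran against it, at r = -0.72 and rho = -0.69 (permutation p = 0.00541, adjusted 0.0433, and adjusted 0.0762 for rho). Tgfbr1 ran against the adipocyte score at r = -0.76 and rho = -0.80 (permutation p = 0.00217, adjusted 0.0289).

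Without the 2 aortas farthest from the median score, r was 0.79 for Smad6, 0.80 for Tgfb3 and 0.81 for Smad7, each with an adjusted permutation p of 0.0501. For Tgfbr1 it was -0.69 (adjusted permutation p = 0.0898). The relation of Smad2 rested on those 2 aortas, since r was -0.43 without them (adjusted permutation p = 0.344). Within Ad-sham and within Ad-FAM3A, r was 0.93 and 0.92 for Smad6, 0.81 and 0.91 for Tgfb3, 0.82 and 0.78 for Smad7, -0.69 and -0.83 for Smad2, and -0.86 and -0.50 for Tgfbr1 with the adipocyte score. All 5 kept their sign in each group, and 0 of the 40 passed within a group of 6 or 7 aortas (exact permutation tests).

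The markers behind these scores were also compared between the groups. Summed smooth muscle markers ranged from 3186 to 14052 CPM in Ad-sham and from 2435 to 19638 CPM in Ad-FAM3A, and 10 of 10 markers had a higher mean in Ad-FAM3A (median log2 fold change 0.40, and 0.71 without Ad-FAM3A6 and Ad-FAM3A7). Of these, 1 had an unadjusted p under 0.05, and 4 without the 2 libraries. Summed adipocyte markers ranged from 6129 to 18115 CPM in Ad-sham and from 4216 to 11175 CPM in Ad-FAM3A, with 10 of 10 lower (median -0.70, and -0.61 without Ad-FAM3A6 and Ad-FAM3A7). Of these, 5 had an unadjusted p under 0.05, and 1 without the 2 libraries. Among all genes tested the share under 0.05 was 5.91%, and 6.27% without the 2 libraries. No marker of either list was at 0 in any aorta. In whole tissue, fewer cells of a type and less RNA per cell cannot be told apart. The part of these markers in the members' differences was not tested. The covariate fits do not measure it, since the scores came from the same aortas after virus and followed some of the members. With the smooth muscle score as covariate the log2 fold change was 0.02 for Tgfb3, -0.04 for Smad6, 0.25 for Smad7, 0.47 for Tgfb2 and 0.44 for Tgfbr1, and the median over the 10 members was 0.03. With the adipocyte score it was 0.31 for Tgfbr1 and 0.62 for Tgfb2. No member had an unadjusted p under 0.05 in either fit.

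**Figure D4:**
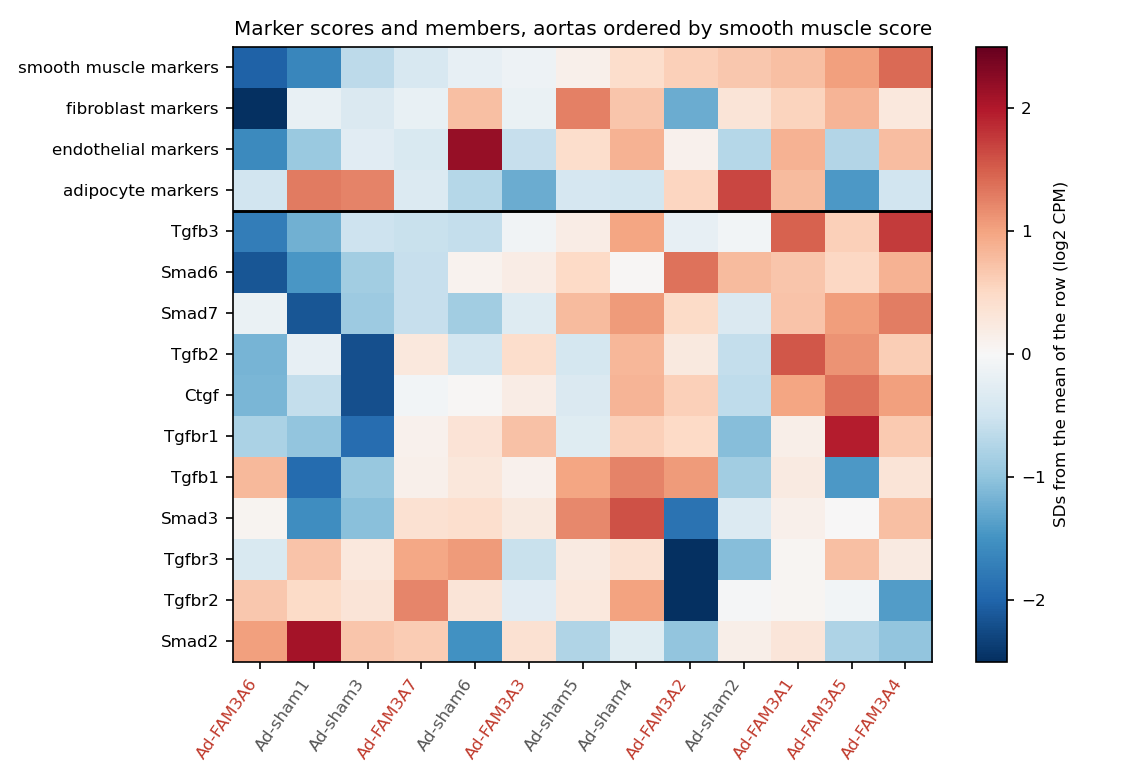
Marker scores (above the black line), the 10 members and the target gene Ctgf in each aorta, as SDs of log2 CPM from the mean of each row (blue low, red high). Columns are the 13 aortas in order of smooth muscle score, with Ad-sham names in grey and Ad-FAM3A names in red. Tgfb3, Smad6 and Smad7 run from blue to red along this order, Smad2 from red to blue, and Tgfb2 and Ctgf share most of their high and low aortas.

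Among the members themselves, 2 of 45 pairs passed at an adjusted p under 0.05 by Pearson's r over the 13 aortas. By Spearman's rho 3 passed, with these among them. How many pairs of other genes reach such values was not counted. Tgfb2 and Tgfbr1, a ligand and the signaling receptor, had r = 0.81 and rho = 0.76 (permutation p = 0.00109, adjusted 0.0463). Tgfb3 and Smad7 had r = 0.77 and rho = 0.80 (permutation p = 0.00206, adjusted 0.0463). The first fell to r = 0.64 without the 2 aortas farthest from the median of Tgfb2 (adjusted permutation p = 0.250), so it rested in part on them, and the second was 0.86. Within Ad-sham and Ad-FAM3A, r was 0.82 and 0.64 for Tgfb2 with Tgfbr1 and 0.96 and 0.78 for Tgfb3 with Smad7, and 0 of the 45 pairs passed within a group (exact permutation tests). The ligands Tgfb1 and Tgfb2 had r = 0.15 and rho = 0.09 (permutation p = 0.635, adjusted 0.715), with r = 0.46 within Ad-sham and -0.54 within Ad-FAM3A, a difference that was not tested. The pair with the most negative r, Smad2 and Smad6, had r = -0.74 and rho = -0.72 (permutation p = 0.00351, adjusted 0.0519). Tgfbr2 and Smad6 had r = -0.64 (permutation p = 0.0210, adjusted 0.111) and the most negative rho, -0.85 (permutation p = 0.00055, adjusted 0.0247), with r = -0.31 within Ad-sham and -0.74 within Ad-FAM3A.

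The genes whose level followed each member most closely over the 13 aortas were listed by Pearson's r of log2 CPM, as a description. Among those closest to Tgfb2 were Ctgf (r = 0.95), which encodes connective tissue growth factor, and Bdnf (r = 0.92), a neurotrophin. Ctgf is a textbook target of TGF-beta. Its lowest level, 351.9 CPM, was in Ad-sham3, the aorta with the lowest Tgfb2. Its highest, 3702.8 CPM, was in Ad-FAM3A5, the aorta next to the highest in Tgfb2. Since Ctgf was listed by this r, matching high and low aortas follow from that choice, and TGF-beta activity was not tested.

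Closest to Tgfb3 were Yap1 (r = 0.94), a coactivator of the Hippo pathway, Flnc (r = 0.94), a muscle filamin, and Lrrc32 (r = 0.92), which anchors latent TGF-beta at the cell surface. Smad6 was followed by Mmp23 (r = 0.96), Pnck (r = 0.96) and Csrp2 (r = 0.95), a LIM protein of smooth muscle, and Smad7 by Src (r = 0.93), Mfge8 (r = 0.93), a protein of the aortic media, and Cap1 (r = 0.92). Tgfbr1 was followed by Mapre1 (r = 0.96), which binds microtubule ends, Man1a2 (r = 0.95) and Serpinb8 (r = 0.95). For Tgfb1 the nearest were St6galnac4 (r = 0.91), Clic1 (r = 0.90) and Icam1 (r = 0.88), an adhesion molecule for leukocytes. The nearest genes of Tgfbr2 (Vps13c, Slfn5 and Tmem175), Tgfbr3 (among them Zkscan8 and C2), Smad2 (Slc22a3, Lrpprc and Focad) and Smad3 (Pcdhgb1, Phf21a and Dchs1) had r between 0.88 and 0.91.

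The rest of the pathway was described by 6 lists with 106 distinct genes tested. Of these, 0 were called and 9 had an unadjusted p under 0.05, against 5.91% of all genes. In the list of latent storage and activation, 15 of 20 genes had a higher mean in Ad-FAM3A, with a median log2 fold change of 0.20 and none at an unadjusted p under 0.05. The median was -0.0375 with the adipocyte score as covariate and -0.0226 with the smooth muscle score, and 0.31 without Ad-FAM3A6 and Ad-FAM3A7. The highest values were those of Thbs1, the thrombospondin that activates latent TGF-beta (0.74 ± 0.45), and Lrrc32 (0.56 ± 0.31). Thbs1 was 70.1, 464.0 and 597.0 CPM in Ad-sham and 249.3, 627.4 and 955.0 CPM in Ad-FAM3A. At the other end were decorin (Dcn, -0.23 ± 0.26), which binds TGF-beta in the matrix, and Emilin1 (-0.21 ± 0.31), which restrains processing of the TGF-beta precursor.

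Co-receptors and receptor partners were lower in 6 of 9 cases (median -0.08, and 0.0204 without Ad-FAM3A6 and Ad-FAM3A7). Lrg1, a secreted glycoprotein that binds endoglin, had the lowest value, -0.91 ± 0.33 (unadjusted p = 0.0155, edgeR's quasi-likelihood test). It was 85.2, 184.5 and 320.8 CPM in Ad-sham and 41.8, 121.1 and 145.3 CPM in Ad-FAM3A, and the groups overlapped through Ad-sham2 and Ad-sham6. Dab2, an endocytic adaptor, followed at -0.33 ± 0.30, and the highest were Bambi, a decoy receptor (0.53 ± 0.28), and Cd109 (0.45 ± 0.41). Among other SMADs and SMAD regulators 13 of 17 were higher (median 0.16, 0.10 without Ad-FAM3A6 and Ad-FAM3A7, and -0.0194 with the adipocyte score as covariate), led by Skil, a SMAD corepressor that TGF-beta induces (0.48 ± 0.21, unadjusted p = 0.0347, edgeR's quasi-likelihood test), and Smad1 (0.34 ± 0.16), a SMAD of the BMP branch like Smad5 (0.02 ± 0.15) and Smad9 (0.26 ± 0.35). Nedd4l and Ppm1a had the lowest values, -0.18 ± 0.15 and -0.11 ± 0.13.

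TGF-beta induced targets were split between the groups. Of 25 tested, 15 were higher and 10 lower in Ad-FAM3A, with a median of 0.25, or 0.40 without Ad-FAM3A6 and Ad-FAM3A7. Ctgf (0.80 ± 0.43) and the integrin gene Itga5 (0.80 ± 0.42) were among the highest, and the lowest were Junb, an AP-1 subunit (-1.12 ± 0.33, unadjusted p = 0.00436, edgeR's quasi-likelihood test), and the collagen gene Col3a1 (-0.43 ± 0.35). Junb was 29.1, 112.0 and 167.9 CPM in Ad-sham and 29.2, 55.5 and 72.7 CPM in Ad-FAM3A. Ad-sham1 was the lowest of all 13 aortas and the other 5 controls were above every Ad-FAM3A aorta, and Junb is also an immediate-early gene. Other collagen genes on the list had values below 0, among them Col1a1 (-0.41 ± 0.43), whereas elastin (Eln, 0.30 ± 0.37), lysyl oxidase (Lox, 0.46 ± 0.36) and periostin (Postn, 0.49 ± 0.37) had values above 0, and none of these passed an unadjusted p under 0.05. Fibroblast markers, whose cells make much of the collagen, were lower in 9 of 10 cases (median -0.31, and -0.21 without Ad-FAM3A6 and Ad-FAM3A7), with a summed level of 3240 to 5147 CPM in Ad-sham and 1728 to 4804 CPM in Ad-FAM3A, and none of them was at 0 in an aorta. Their part in the collagen values was not tested.

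The BMP and activin branch held 5 of the 9 genes at an unadjusted p under 0.05. Grem1, a secreted BMP antagonist, had the highest value, a log2 fold change of 3.64 ± 1.06 (unadjusted p = 0.00393, adjusted p = 0.810 in edgeR's quasi-likelihood test). It was 0.57, 1.66 and 2.34 CPM in Ad-sham and 0.15, 5.66 and 71.0 CPM in Ad-FAM3A. The mean rested on Ad-FAM3A3 and Ad-FAM3A6, at 71.0 and 35.8 CPM, since no other aorta exceeded 8.9 CPM and Ad-FAM3A5 was the lowest of all. The log2 fold change of Grem1 was 2.75 without Ad-FAM3A3, 3.35 without Ad-FAM3A6, and 3.46 without both Ad-FAM3A6 and Ad-FAM3A7. Gdf6, a BMP family ligand (1.79 ± 0.68, unadjusted p = 0.0197), was 27.7 CPM in Ad-FAM3A2 and at most 9.7 CPM elsewhere, and its log2 fold change was 1.03 without Ad-FAM3A2. Bmp4 (0.92 ± 0.41, unadjusted p = 0.0410) was between 19.2 and 28.2 CPM in Ad-sham and above all of these in 5 of 7 Ad-FAM3A aortas, with 7.6 CPM in Ad-FAM3A6. Its log2 fold change was 1.20 without Ad-FAM3A6 and Ad-FAM3A7 and 0.60 without Ad-FAM3A2. Bmp2 (0.58 ± 0.26, unadjusted p = 0.0422) was also on the higher side, and the activin receptor Acvr2b (-0.65 ± 0.28, unadjusted p = 0.0360) on the lower side, all by edgeR's quasi-likelihood test. Acvr2b was -0.43 without Ad-sham3 (unadjusted p = 0.129). Bmp5 had the lowest value of the list, -0.76 ± 0.46. Over the list, 18 of 24 genes were higher, with a median of 0.21, of 0.34 without Ad-FAM3A6 and Ad-FAM3A7, and of -0.0129 with the adipocyte score as covariate.

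The BMP-SMAD induced targets, a list that holds Smad6 and Smad7 themselves, were higher in 8 of 11 cases (median 0.18, and 0.45 without Ad-FAM3A6 and Ad-FAM3A7). Id2, an inhibitor of bHLH factors, had the highest value (0.40 ± 0.18, unadjusted p = 0.0433, edgeR's quasi-likelihood test), with 60.2, 93.0 and 116.5 CPM in Ad-sham and 87.6, 115.1 and 175.3 CPM in Ad-FAM3A. The related genes Id1 and Id3 stood at -0.01 ± 0.32 and 0.31 ± 0.31, and the lowest values were those of Gata2 (-0.28 ± 0.31) and Id1. With the smooth muscle score as covariate the median of this list was -0.04, and that of the TGF-beta induced targets was -0.0043.

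**Figure D5:**
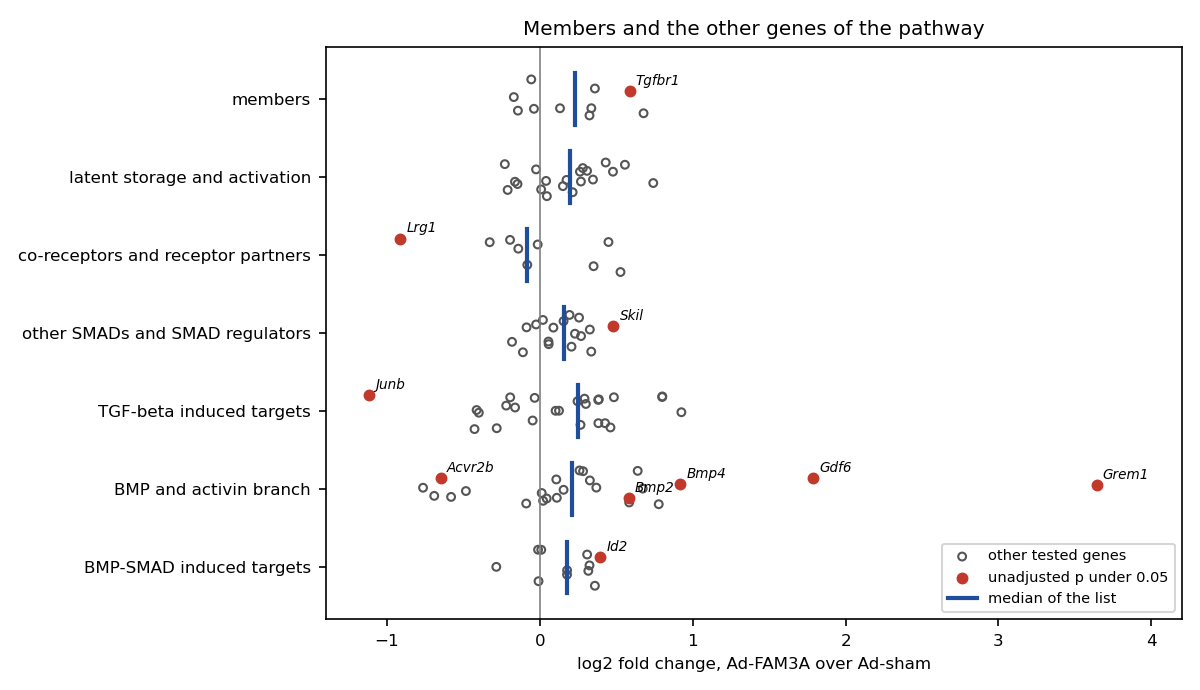
Log2 fold change, Ad-FAM3A over Ad-sham, of the members and of the tested genes of the 6 pathway lists, 1 circle per gene, filled red with the gene's name where the unadjusted p was under 0.05, and a blue line at the median of each list. The medians lie between -0.08 and 0.25, and Grem1 stands alone at 3.64.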

How the data were processed

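RNA from 13 aortas was sequenced, 6 labelled Ad-sham and 7 labelled Ad-FAM3A, and each sample was mapped to its column by its label, with 0 columns left unmapped. The authors removed low-quality reads, aligned to GRCm38 with Hisat2, counted reads per gene with FeatureCounts and deposited raw counts per aorta. The annotation release, strand setting and handling of multiply mapped reads are not given in the sources used here. The labels name a Qiagen RNeasy kit and a SMARTER library kit, whereas the study's methods name TRIzol and a New England Biolabs kit, and which was used was not settled. The authors also deposited FPKM, as 1 value per group with no error, which entered no test. Replicates are separately numbered aortas, and p-values measure the spread between them.

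Counts were scaled by TMM, filtered by filterByExpr and tested in edgeR 4.0.16 (R 4.3.3) with the quasi-likelihood F test, and p-values were adjusted over the 15811 genes by the Benjamini-Hochberg method. The standard error is the size of the log2 fold change over the square root of F. Log2 CPM used a pseudocount of 2 counts. A gene without reads could still have had up to 3 counts, or 0.140 to 0.221 CPM depending on the aorta, a limit for counting error only. Ratios within an aorta were tested by enumerating every split of the aortas (exact permutation, two-sided), and relations over 13 aortas by 100000 permutations. Alternatives were DESeq2's size factors, upper quartile scaling, library totals, no filter or at least 10 counts in every aorta, DESeq2 1.42.0, limma-voom (limma 3.58.1), edgeR's exact test, a replicate block, 10 added to each count of a ratio, leaving out each aorta or both Ad-FAM3A6 and Ad-FAM3A7, and marker scores as covariates. Leaving out aortas for single pathway genes and for marker lists was added after seeing the data.

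The members, the 6 pathway lists and the 11 marker lists were chosen with earlier results of these data known. The genes that may be named are the members, Fam3a, the 2 highest and 2 lowest log2 fold changes of each pathway list and every gene of these at an unadjusted p under 0.05, markers where a list is checked, and the 3 tested genes with the highest r to each member. Itga5, Smad1, Smad5, Smad9, Col1a1, Eln, Lox, Postn and Id3 were named after their values were seen. The values of 3 genes that this rule allows are not reported here. Ensembl gene models of the same assembly gave overlapping genes. Sequences come from RefSeq (GRCm38.p6), whose table held 6 of the 10 members.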

Additional observations from a re-analysis of the deposited data

Results flagged for a closer look

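In 54 sets of values (members, Fam3a, ratios and marker scores, within Ad-sham or Ad-FAM3A), 6 held an aorta far from the rest by Dixon's criterion, where chance gives about 1 in 20, or 2.7 sets. All 6 were in the Ad-FAM3A group. Ad-FAM3A5 had a log2 CPM of 4.996 for Tgfb1, while the other 6 aortas lay between 5.85 and 6.38, and the same aorta had the highest Tgfbr1 of all 13. Ad-FAM3A2 had 6.0096 for Tgfbr3 (the others 6.75 to 7.29) and 4.6939 for Smad3 (the others 5.29 to 5.53), in the aorta that also had the lowest Tgfbr2 and the highest Smad6. The log2 ratio of Smad6 to Smad7 was -0.7756 in Ad-FAM3A6 against 0.71 to 1.74 in the others, since Smad6 was at its lowest there and Smad7 was not. The cardiac muscle marker score of Ad-FAM3A6 was 3.4649 against -0.10 to 1.22, and the kidney marker score of Ad-FAM3A3 was 4.6642 against -2.38 to 0.53. The part of such tissue in the members' values was not tested.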

How the results depend on the processing

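No alternative called a member, a pathway gene or, except DESeq2 with 10 genes, any gene. The number of members at an unadjusted p under 0.05 was 1 (Tgfbr1) in the main analysis, 2 with library totals, with no filter, with at least 10 counts in every aorta, with DESeq2, with edgeR's exact test and without both Ad-FAM3A6 and Ad-FAM3A7, 0 with the smooth muscle or adipocyte score as covariate, and 0 to 2 with 1 aorta left out. With the replicate block it was 3 (Tgfb2, Tgfbr1 and Smad7), and Fam3a was 0.0351. The share of all tested genes under 0.05 was 5.91% in the main analysis and 3.81% with the replicate block. It was 6% with library totals, 7.37% with no filter and 6.27% with at least 10 counts in every aorta. DESeq2 gave 4.88%, edgeR's exact test 5.72% and leaving out both Ad-FAM3A6 and Ad-FAM3A7 6.27%. With the smooth muscle score it was 7.51%, with the adipocyte score 3.56%, and with 1 aorta left out 3.07% to 8.6%. The replicate numbers do not pair the samples: the correlation of same-numbered aortas' deviations ran from -0.33 to 0.45, only aorta 3 matched its own number best, and the labels tie no number to a day or litter. The cause of these shifts was not tested.

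Several small differences turned direction. Smad2 was -0.1328 without both Ad-FAM3A6 and Ad-FAM3A7, 0.0303 with the smooth muscle score and 0.0763 with the adipocyte score, and between -0.1026 and 0.0654 with 1 aorta left out, with the turn coming from Ad-sham1 or from Ad-FAM3A2, 4 or 5. Smad3 ran from -0.1386 to 0.0561 with 1 aorta left out (turned without Ad-sham4, Ad-sham5 or Ad-FAM3A2) and was -0.2187 with the adipocyte score, a fit in which Tgfb1 was 0.0562, Tgfbr3 -0.2706 and Smad7 0.2372. Smad6 was -0.0443 with the smooth muscle score. Fam3a was 0.091 without both Ad-FAM3A6 and Ad-FAM3A7, 0.0885 with the adipocyte score, and between -0.1027 and 0.043 with 1 aorta left out (turned without Ad-sham2 or Ad-FAM3A3, 6 or 7). The log2 ratio difference of Tgfb3 to Tgfb1 ran from -0.1661 to 0.2854 with 1 aorta left out (turned without Ad-sham5, Ad-sham6 or Ad-FAM3A1, 4 or 5), and that of Smad6 to Smad7 from -0.3757 to 0.0434 (turned without Ad-FAM3A6) and was 0.1019 without both Ad-FAM3A6 and Ad-FAM3A7. Of the pathway list medians, those of latent storage (-0.0375), the BMP and activin branch (-0.0129) and the other SMADs (-0.0194) turned with the adipocyte score, those of latent storage (-0.0226), the TGF-beta induced targets (-0.0043) and the BMP-SMAD induced targets (-0.0417) with the smooth muscle score, and that of the co-receptors (0.0204) without both Ad-FAM3A6 and Ad-FAM3A7. Without both, the other 5 list medians lay between 0.1047 and 0.4483. With 1 aorta left out, no list median turned. The ranges were 0.0785 (without Ad-sham3) to 0.3867 (Ad-sham4) for latent storage, -0.145 (Ad-sham2) to -0.0123 (Ad-sham6) for the co-receptors, 0.0478 (Ad-FAM3A5) to 0.2007 (Ad-FAM3A2) for the other SMADs, 0.1512 (Ad-sham3) to 0.3406 (Ad-FAM3A6) for the BMP and activin branch, 0.0795 (Ad-FAM3A5) to 0.3714 (Ad-FAM3A6) for the TGF-beta induced targets and 0.0722 (Ad-sham1) to 0.3418 (Ad-FAM3A6) for the BMP-SMAD induced targets. Of the pathway genes at an unadjusted p under 0.05, Grem1, Junb and Lrg1 stayed under it with each aorta left out in turn, and Acvr2b, Bmp2, Bmp4, Gdf6, Id2 and Skil did not.

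Of the 5 ratios, 0 passed after adjustment in the main analysis and 1 (Tgfbr1 to Tgfbr2) without both Ad-FAM3A6 and Ad-FAM3A7. Relations to marker scores that passed numbered 5 in the main analysis and 5 with library totals, 0 without the 2 aortas farthest from the median, 0 within Ad-sham and 0 within Ad-FAM3A. Relations among members by Pearson's r numbered 2, then 3 with library totals. They numbered 2 without the 2 aortas farthest from the median, with Tgfb2 and Tgfbr1 not among them. Within Ad-sham and within Ad-FAM3A, where fewer aortas enter, they numbered 0. Tgfb1, Tgfb2, Tgfb3, Tgfbr1, Tgfbr2, Tgfbr3 and Smad7 kept their direction under all 25 alternatives. With 6 and 7 aortas, a member with an SD near that of Smad6 (0.86 on the log2 scale) is measured to a standard error of 0.39, so a difference of that size could not be told from 0.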

Other observations

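The marker lists place the members in a mixed tissue. Besides the lists described above, endothelial markers were lower in 7 of 10 cases (median log2 fold change -0.15, and -0.04 without Ad-FAM3A6 and Ad-FAM3A7, 2 at an unadjusted p under 0.05), macrophage markers were lower in 6 of 10 (median -0.03, and -0.06 without both), and B and T cell markers were higher in 10 of 10 (median 2.18, 6 at an unadjusted p under 0.05). The B and T cell values rested on Ad-FAM3A6 and Ad-FAM3A7, without which 10 of 10 were lower (median -0.86, 1 at an unadjusted p under 0.05). Skeletal muscle markers were higher in 8 of 9 tested (median 0.49, and 0.31 over 8 tested without both), and cardiac muscle markers lower in 5 of 6 (median -0.58, and -1.45 without both). Sympathetic neuron markers were lower in 10 of 10 (median -0.59), Schwann cell markers in 9 of 9 (median -0.64) and kidney markers in 5 of 6 (median -0.53, and -0.28 over 8 tested without both). Summed sympathetic neuron markers ran from 74.1 to 2518 CPM in Ad-sham and from 141.7 to 3147 CPM in Ad-FAM3A. Summed kidney markers ran from 1.27 to 713.6 CPM in Ad-sham and from 1.38 to 439.5 CPM in Ad-FAM3A. Markers of 1 list were read in the same aortas, so such counts of markers are not independent. No marker was called by edgeR's quasi-likelihood test. Among all genes tested, 5.91% had an unadjusted p under 0.05, and 6.27% without both.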
